A study of Mus musculus with 4 samples.

Results

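The genes examined here encode 9 inhibitory surface proteins of T cells, often called immune checkpoints, and the nuclear factor TOX, and they are followed in mouse CD4+ T cells that differentiated into T helper 1 (Th1) cells with or without interleukin-16 (IL-16). The 10 genes, chosen by name, are Pdcd1, Ctla4, Lag3, Havcr2, Tigit, Cd160, Btla, Entpd1, Cd200r1 and Tox, and each has 1 row of its symbol among the 26334 rows of the deposited expression table. Naive CD4+ T cells from mouse spleen were kept under Th1 conditions for 5 days with either phosphate-buffered saline (PBS, the vehicle; 2 libraries) or IL-16 (2 libraries), and polyadenylated RNA was sequenced. IL-16 is a cytokine for which CD4 has been described as a receptor, and the comparison asks how it alters gene expression in developing Th1 cells. The sources used here do not give strain, age, sex, cytokine dose or the number of animals. They also do not tell whether the 2 libraries of a treatment stem from separate cultures, so the p-values reflect spread among these libraries only and part of it may be technical.

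Checkpoint receptors are induced when T cells are activated and restrain the signal that activated them. PD-1 and BTLA recruit tyrosine phosphatases to their cytoplasmic tails, CTLA-4 takes the B7 ligands away from CD28, TIGIT competes with CD226 for a shared ligand, and CD39, the product of Entpd1, degrades extracellular ATP on the way to adenosine. TOX is a DNA-binding protein of the high mobility group family that, in CD8 T cells under chronic stimulation, upholds a state in which many of these receptors are expressed together. Effector Th1 cells carry several of these receptors during an ordinary response.

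Per the titles and the design text these are Th1 cells, but the fields for source and cell type read peritoneal macrophage. All libraries carried T cell transcripts, with a median of 169 to 189 FPKM (fragments scaled to transcript length and library size) over 12 CD4 T cell markers. The median of 13 macrophage markers was at most 0.0453 FPKM, with C1qc, Fcgr1, Timd4 and Marco listed at 0 in every library, Csf1r at no more than 0.135 FPKM and Adgre1 at no more than 0.117 FPKM. Cd68 was the highest of the 13, at 2.90 and 3.36 FPKM under PBS and 3.60 and 4.88 FPKM under IL-16 (limma adjusted p = 0.271). Several checkpoint genes are also expressed by regulatory T cells, B cells, NK cells or myeloid cells. The summed level of 6 B cell markers was 3.22 to 4.14 FPKM under PBS and 1.74 to 2.31 FPKM under IL-16, and that of 7 NK cell markers, including Klrd1 and Klrk1, which activated T cells also express, was 25.2 to 30.9 and 25.9 to 26.0 FPKM. It was 1.02 to 1.37 and 0.752 to 1.10 FPKM for 3 gamma-delta or NKT cell markers, 8.23 to 8.75 and 8.63 to 9.99 FPKM for Cd8a and Cd8b1, and 1.64 to 2.37 and 1.61 to 2.53 FPKM for 6 neutrophil or mast cell markers, of which S100a8, S100a9 and Elane were listed at 0. The 8 dendritic cell markers summed to 337.1 to 337.5 and 348 to 366 FPKM, nearly all of it from Ccr7, Batf3 and H2-Ab1, while Siglech was listed at 0.

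In both groups Ctla4 and Lag3 stood far above the other checkpoint genes, and Tox and Cd160 lay at the lower end. With PBS the order of mean levels, in FPKM and so per transcript length, was Ctla4 (167 ± 3.14, SD, n = 2), Lag3 (128 ± 3.54), Btla (27.0 ± 1.24), Entpd1 (16.9 ± 0.895), Tigit (13.2 ± 1.17), Pdcd1 (9.93 ± 0.564), Havcr2 (5.58 ± 0.699), Cd200r1 (4.47 ± 0.214), Tox (1.05 ± 0.149) and Cd160 (0.794 ± 0.147). No neighbours in this order had overlapping values under PBS. With IL-16 the values of Lag3 overlapped those of Ctla4 and the values of Entpd1 overlapped those of Btla, while the rest of the order was the same. The Ctla4 values here are those of the row with the plain symbol. Summed with the 2 rows that carry the symbol with a suffix, Ctla4 was 330 and 307 FPKM under IL-16, above both Lag3 values. Ctla4 and Lag3 ranked at the 97.4 and 96.9 percentile of the tested rows by mean log2 level, and Cd200r1 at the 21.0 percentile.

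**Figure D1:**
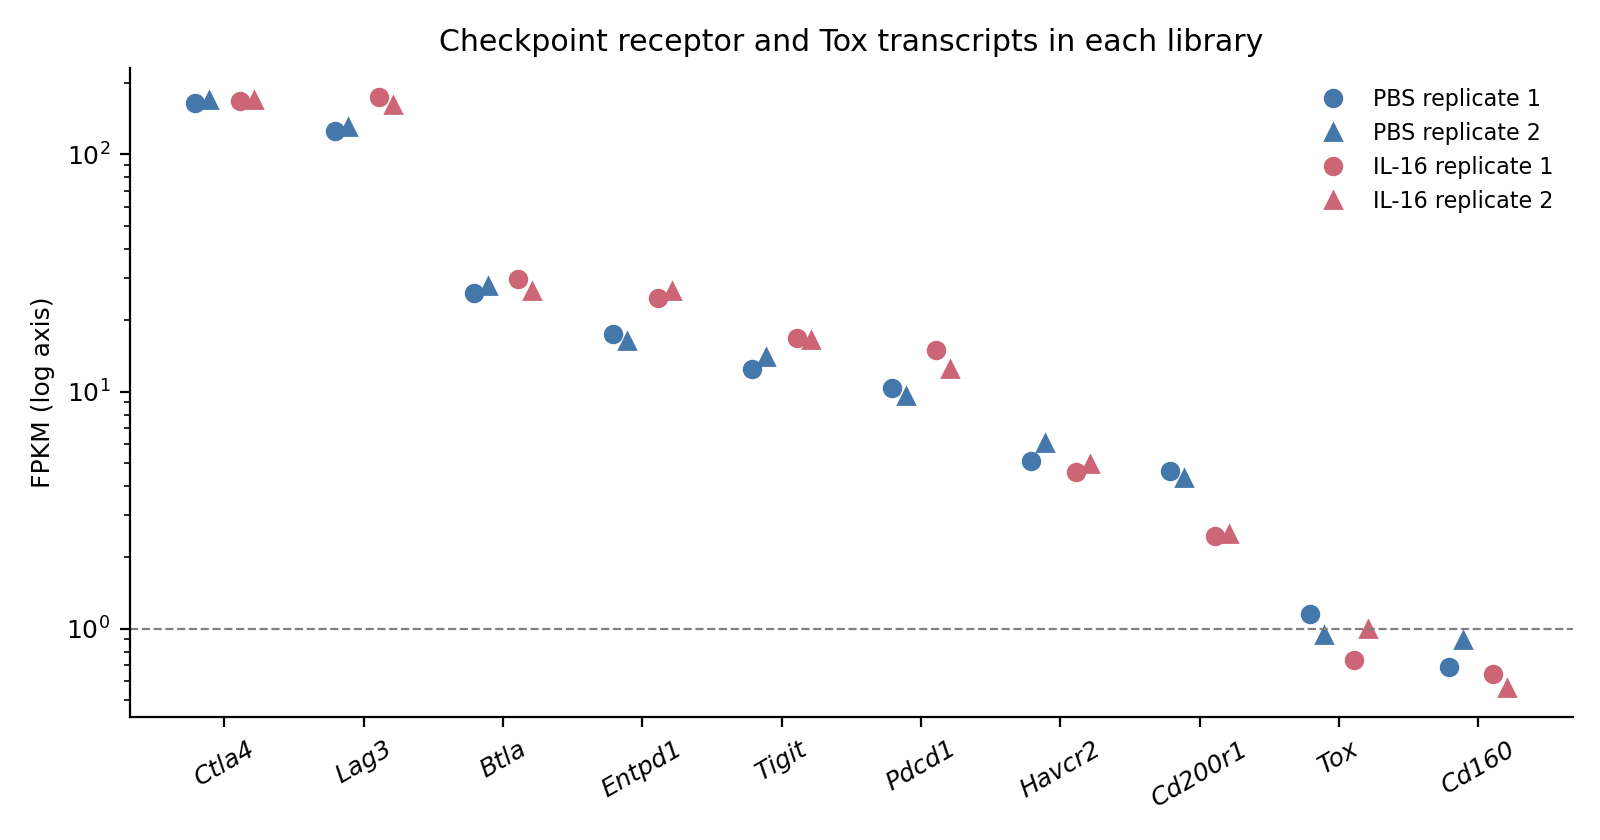
FPKM of the 10 genes in each library on a log axis, ordered by the PBS mean, with PBS in blue, IL-16 in red, circles for replicate 1 and triangles for replicate 2; the dashed line is the 1 FPKM limit of the filter. The IL-16 points of Entpd1, Lag3, Pdcd1 and Tigit lie above the PBS points, and those of Cd200r1, Havcr2 and Cd160 lie below. Those of Ctla4, Btla and Tox overlap the PBS points. Tox and Cd160 lie near or under the line.

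A row was tested where it reached 1 FPKM in at least 2 libraries, which held for 11882 rows and for 8 of the 10 genes. Tests used limma on log2(FPKM + 1), a scale that understates the change of low genes, and p-values were corrected over every tested row (Benjamini-Hochberg). None of the 8 tested checkpoint genes passed an adjusted p of 0.05 in limma, against 0.219% of all tested rows (26 rows; 0.160% higher and 0.0589% lower). At an unadjusted p under 0.05 there were 5 of the 8, Entpd1, Lag3, Pdcd1 and Tigit on the higher side and Cd200r1 on the lower, against 23.4% of all tested rows. Of all tested rows, 9.59% had such a p on the higher side and 13.9% on the lower. In 6 of the 8 the values of the groups did not overlap, 4 with IL-16 above PBS and 2 below, and the same held for 58.9% of all tested rows (24.1% above and 34.8% below). The median log2 fold change of the 8 genes was 0.18, with a range from -0.65 to 0.57, beside a median of -0.045 over all tested rows. The median of the checkpoint genes was 0.035 with no filter, over all 10 genes, and 0.31 over the genes with a mean of at least 5 FPKM. It was 0.064 after rescaling to a common total, where Tox and Cd160 enter, and 0.099 with median-of-ratios scaling, where Tox enters. These medians thus cover different genes. Relative to the PBS mean, the median of the 8 came to 0.23 for the first IL-16 replicate and 0.16 for the second.

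Entpd1 had the smallest p of the group. It encodes CD39, the ectoenzyme that converts extracellular ATP and ADP to AMP. It measured 17.5 and 16.3 FPKM under PBS and 24.7 and 26.5 FPKM under IL-16. Both IL-16 values were thus above both PBS values, with a ratio of means of 1.51. The log2 fold change was 0.57 (SE 0.084, 95% interval 0.36 to 0.78), with an unadjusted p of 0.000845 and a limma adjusted p of 0.0797. Without IL-16 replicate 1, a fit whose spread came from PBS alone, the log2 fold change was 0.62. Entpd1 passed when rows with a copy suffix were added to the row of the plain symbol (limma adjusted p = 0.0456, beside 1.11% of all rows passing). Entpd1 has no such row, and its log2 fold change stayed at 0.57 (SE 0.084), so only other rows of that fit differed. Over 13 alternatives its adjusted p ran from 0.0187 to 0.343 and its log2 fold change from 0.48 to 0.62.

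Lag3, a receptor for MHC class II that is related to CD4, was 126 and 131 FPKM under PBS and 174 and 162 FPKM under IL-16. The groups did not overlap and the ratio of means was 1.31. The log2 fold change was 0.39 (SE 0.076, 95% interval 0.19 to 0.58, limma adjusted p = 0.105). Without IL-16 replicate 1 the log2 fold change was 0.33. Lag3 and Cd4 are neighbouring genes on the same strand in the GENCODE annotation of GRCm38, and Cd4 measured 243 and 262 FPKM under PBS and 269 and 302 FPKM under IL-16. The ratio of Lag3 to Cd4 was 0.518 and 0.501 in the PBS libraries and 0.647 and 0.538 in the IL-16 libraries.

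Pdcd1, which encodes PD-1, measured 10.3 and 9.53 FPKM under PBS and 14.9 and 12.4 FPKM under IL-16. Both IL-16 values exceeded both PBS values, and IL-16 replicate 1 was the highest. The ratio of means was 1.38 and the log2 fold change 0.42 (SE 0.11, 95% interval 0.13 to 0.71, limma adjusted p = 0.137). The difference from the PBS mean was 0.54 on the log2 scale in the first IL-16 replicate and 0.30 in the second. Tigit, the receptor for CD155, measured 12.4 and 14.0 FPKM under PBS and 16.8 and 16.4 FPKM under IL-16. The groups were separate, with a ratio of means of 1.26 and a log2 fold change of 0.31 (SE 0.092, 95% interval 0.080 to 0.55, limma adjusted p = 0.150). Neither Pdcd1 nor Tigit passed under any of 13 alternatives, where the lowest adjusted p was 0.101 and 0.116.

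Regulatory T cells express Ctla4, Tigit and Entpd1 at high levels, and none of 8 markers of these cells passed the test. Foxp3, the transcription factor that defines them, was 11.6 and 10.7 FPKM under PBS and 14.4 and 20.0 FPKM under IL-16 (log2 fold change 0.57, limma adjusted p = 0.143). The 8 regulatory T cell markers summed to 568.8 to 572.9 FPKM under PBS and 689 to 831 FPKM under IL-16, most of it from Il2ra, which activated T cells also express. In 4 of the 8 both IL-16 values were above both PBS values and in 1 below, beside 24.1% and 34.8% of all tested rows. Their part in the Entpd1 and Tigit values was not tested. In bulk RNA, a different share of cells expressing a gene and a different amount of RNA per cell cannot be told apart.

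The promoter windows below are shown for Pdcd1, Tigit and Entpd1, picked because their IL-16 values lay above PBS, so that the sequence can be read beside the levels. RefSeq windows of GRCm38.p6, from 250 bases before to 50 bases after a start, were at hand for 7 of the 10 genes. Lag3, whose IL-16 values also lay above PBS, had none, and neither had Cd200r1 and Tox. Capitals mark the core of the NFAT site, GGAAA or TTTCC, since NFAT factors act on many checkpoint genes after T cell receptor signalling. The windows are those of Pdcd1 (chr1:94052504-94052803, minus strand), Tigit (chr16:43664135-43664434, minus strand) and the second of the 2 Entpd1 starts (chr19:40659520-40659819, plus strand), each printed in the direction of transcription.
Pdcd1: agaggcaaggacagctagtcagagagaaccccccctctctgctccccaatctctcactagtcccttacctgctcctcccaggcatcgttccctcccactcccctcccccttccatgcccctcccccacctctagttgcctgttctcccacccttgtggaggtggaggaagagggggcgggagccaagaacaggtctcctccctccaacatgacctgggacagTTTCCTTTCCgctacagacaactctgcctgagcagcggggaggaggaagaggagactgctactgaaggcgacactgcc
Tigit: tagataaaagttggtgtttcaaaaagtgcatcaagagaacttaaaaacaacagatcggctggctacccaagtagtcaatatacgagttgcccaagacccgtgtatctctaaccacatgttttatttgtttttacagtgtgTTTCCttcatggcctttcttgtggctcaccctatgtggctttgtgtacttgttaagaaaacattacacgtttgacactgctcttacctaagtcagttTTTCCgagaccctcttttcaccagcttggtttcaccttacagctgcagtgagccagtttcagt
Entpd1: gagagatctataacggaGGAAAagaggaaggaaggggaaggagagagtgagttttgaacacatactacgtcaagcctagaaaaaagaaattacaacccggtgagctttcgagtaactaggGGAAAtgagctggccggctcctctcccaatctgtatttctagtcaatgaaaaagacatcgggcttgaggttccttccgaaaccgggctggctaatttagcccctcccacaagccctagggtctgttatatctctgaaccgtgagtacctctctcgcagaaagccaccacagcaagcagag

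Each of these windows held 2 NFAT cores, searched on both strands. At least 1 such core was present in 61.3% of 32851 promoter windows of the same length, and the share with 2 was not counted. The first Entpd1 start, the first Cd160 start, Btla and Havcr2 held 0 cores, and Ctla4 and the second Cd160 start held 1 each. Which Entpd1 start was used in these cells was not examined. An AP-1 site (TGANTCA, present in 7.81% of windows) was found in the Havcr2 window and in none of the other 8 windows of these genes. A T-box half-site (GGTGTGA on either strand, 3.98% of windows) and a GAS element (TTCNNNGAA, 8.30%) were found in the second Cd160 window only. These are matches of letters, chosen with the expression values known, and show no binding.

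Ctla4 and Btla were at nearly the same level in both groups. Ctla4 was 165 and 169 FPKM under PBS and 168 and 170 FPKM under IL-16. The values overlapped, and the log2 fold change was 0.017 with a 95% interval from -0.16 to 0.19 (limma adjusted p = 0.900). The table holds 2 more rows that carry the symbol with a copy suffix. The row Ctla4-2 was 81.8, 81.4, 79.3 and 67.4 FPKM and the row Ctla4-3 was 84.5, 84.3, 83.5 and 69.7 FPKM in PBS replicates 1 and 2 and IL-16 replicates 1 and 2. In both copy rows the low value was that of IL-16 replicate 2, and neither passed (limma adjusted p = 0.367 and 0.425). The origin of the copy rows is not stated, and reads may be split between them. Summed over the 3 rows, Ctla4 was 331 and 335 FPKM under PBS and 330 and 307 FPKM under IL-16, and the log2 fold change became -0.063 (limma adjusted p = 0.654).

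Btla, a receptor that binds the TNF receptor family member HVEM, was 26.1 and 27.9 FPKM under PBS and 29.8 and 26.4 FPKM under IL-16. The values overlapped, and the log2 fold change was 0.053 with a 95% interval from -0.17 to 0.28 (limma adjusted p = 0.744). Without IL-16 replicate 1 its sign turned, to -0.029. B cells also express Btla at high levels. Of the 6 B cell markers, 5 lay lower in each IL-16 library than in either PBS library, beside 34.8% of all tested rows. Only 1 of the 6 reached the filter, and it did not pass. None was above 2.13 FPKM, and their part in the Btla values was not tested.

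Cd200r1 had the largest difference of the tested checkpoint genes, and it lay on the lower side. It encodes the receptor for CD200, which delivers an inhibitory signal mainly in myeloid cells and is also found on T cells. It was 4.62 and 4.32 FPKM under PBS and 2.45 and 2.51 FPKM under IL-16. The groups were well apart, with a ratio of means of 0.556. The log2 fold change was -0.65 (SE 0.11, 95% interval -0.93 to -0.37), with an unadjusted p of 0.00171 and a limma adjusted p of 0.0973. Its log2 fold change was -0.64 without IL-16 replicate 1, -0.82 at a pseudocount of 0.1 and -0.34 at a pseudocount of 5. The related gene Cd200r4, its neighbour on the same strand and named after its values were seen, was 2.54 and 1.83 FPKM under PBS and 2.34 and 2.96 FPKM under IL-16, with overlapping groups. Cd200r2 was listed at 0 and Cd200r3 did not exceed 0.238 FPKM. Reads can be split between the similar genes of this family.

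Havcr2, which encodes TIM-3, a receptor of differentiated Th1 cells, was 5.09 and 6.07 FPKM under PBS and 4.58 and 4.96 FPKM under IL-16. The IL-16 values lay below, but the gap between the groups was smaller than the distance between the PBS libraries. The log2 fold change was -0.19 with a 95% interval from -0.49 to 0.12 (limma adjusted p = 0.393). Myeloid cells also express Havcr2, and the 13 macrophage markers summed to 3.66 to 4.47 FPKM under PBS and 4.24 to 5.37 FPKM under IL-16, most of it from Cd68.

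**Figure D2:**
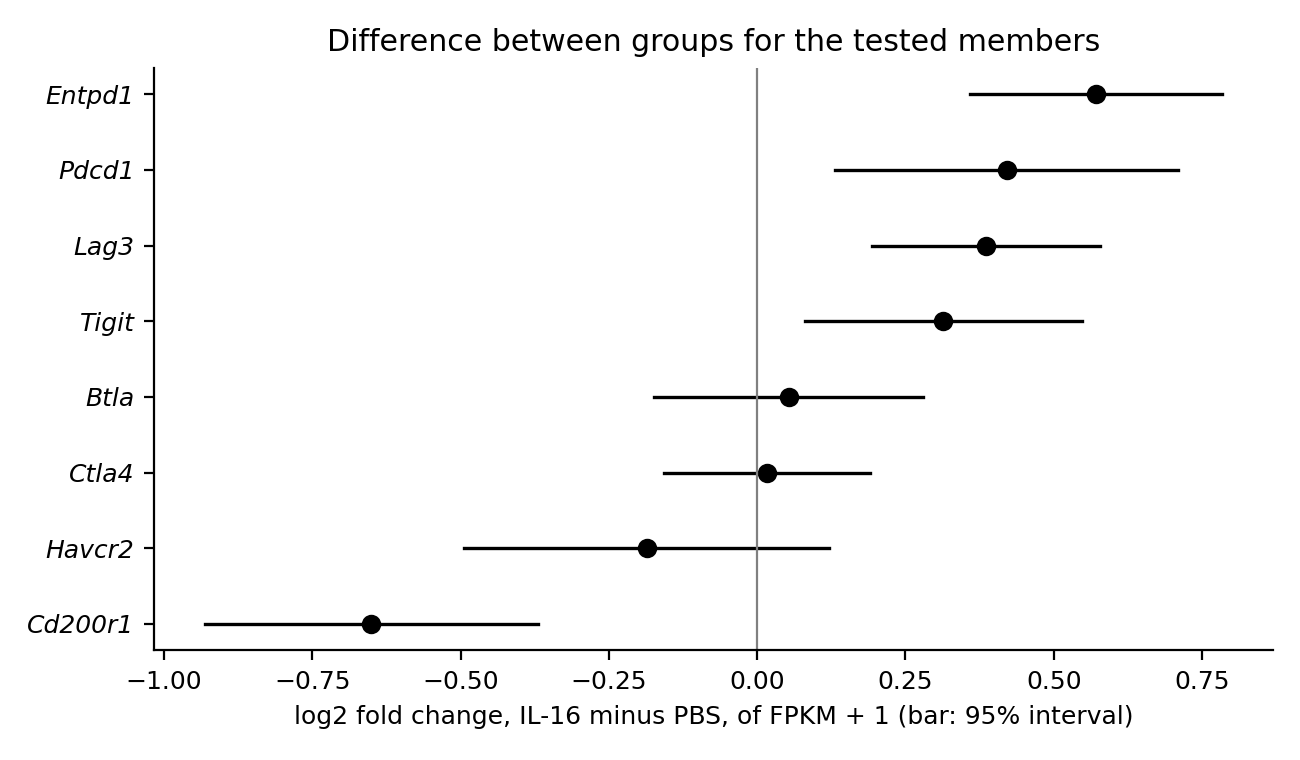
Log2 fold change of the 8 tested genes, IL-16 minus PBS on log2(FPKM + 1), with bars for the 95% interval from limma (2 libraries a group). The intervals of Entpd1, Pdcd1, Lag3 and Tigit lie above 0, that of Cd200r1 lies below 0, and those of Btla, Ctla4 and Havcr2 span 0; no gene passed after adjustment over all rows.

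Tox and Cd160 did not reach the filter and were not tested. Tox was 1.15 and 0.941 FPKM under PBS and 0.739 and 0.997 FPKM under IL-16, and the groups overlapped. The difference of the mean log2 values was -0.13. In GENCODE its exons overlap those of Gm11802, an antisense gene, and the sources used here do not say whether counting used strand. Cd160, a glycosylphosphatidylinositol-anchored receptor for HVEM, was 0.690 and 0.898 FPKM under PBS and 0.645 and 0.563 FPKM under IL-16. Its IL-16 values lay just below the PBS values, with a difference of -0.16 on the log2 scale. Its exons overlap those of Pdzk1 on the other strand, which did not exceed 0.0989 FPKM. With no filter the limma adjusted p was 0.651 for Tox and 0.521 for Cd160. At these levels and with the depth unknown, a difference could not be resolved.

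Among the paralogues of Tox, the tested genes Tox2 and Tox4 did not pass. Tox2 was 0.483 and 1.57 FPKM under PBS and 0.444 and 1.04 FPKM under IL-16, with the replicates of a group further apart than the groups. Tox3 did not exceed 0.204 FPKM. Tox4, a more widely expressed member of the family, was 28.1 and 30.2 FPKM under PBS and 30.31 and 30.32 FPKM under IL-16 (log2 fold change 0.058, limma adjusted p = 0.663). Of the 22 tested genes in the list of TOX relatives and regulators of checkpoint genes, 1 rose, none fell and 21 did not pass, with a median log2 fold change of 0.057. The gene that rose was Tbx21, which encodes T-bet, the Th1 master regulator, from 46.5 ± 0.661 to 96.5 ± 7.36 FPKM (SD, n = 2 each; limma adjusted p = 0.0350). That call was lost in 4 of 13 alternatives, namely without PBS replicate 1, without PBS replicate 2, with no filter and with no mean-variance trend (adjusted p up to 0.171). Ifng, a T-bet target outside this list, was 55.5 ± 3.64 FPKM under PBS and 121 ± 2.20 FPKM under IL-16 (limma adjusted p = 0.0329), a call lost in the same 4 alternatives (adjusted p up to 0.148). Both belong to a list of 7 Th1 markers, of which 3 passed (Tbx21, Ifng and Hlx), beside 0.219% of all tested rows. In 5 of the 7 both IL-16 values were above both PBS values and in 0 below, beside 24.1% and 34.8% of all tested rows. Cxcr3 (18.5 ± 1.58 and 18.3 ± 1.52 FPKM) and Stat4 (37.7 ± 0.294 and 36.1 ± 4.15 FPKM) overlapped. Named after its values were seen, Nfatc2, an NFAT factor, was 53.2 ± 0.722 and 74.8 ± 3.05 FPKM (limma adjusted p = 0.0757). Of the other NFAT genes listed, Nfatc1 lay higher with IL-16 (39.2 ± 1.71 and 47.8 ± 4.57 FPKM) and Nfatc3 overlapped (43.6 ± 0.646 and 45.5 ± 5.34 FPKM). Also named after its values were seen, Tcf7 encodes TCF-1, a factor of memory and stem-like T cells. It was 119 and 122 FPKM under PBS and 49.4 and 87.5 FPKM under IL-16 (limma adjusted p = 0.153). Lef1 of the same list overlapped, with the higher mean under IL-16 (73.2 ± 4.79 and 90.3 ± 21.0 FPKM). Nfatc1, Nfatc2, Nfatc3, Tcf7 and Lef1 did not pass.

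T cells themselves express ligands of several of these receptors. Of 17 listed ligand and partner genes 11 were tested and none passed. Only 1 had an unadjusted limma p under 0.05, beside 23.4% of all tested rows. The groups did not overlap in 5 (3 with IL-16 above, 2 below), beside 58.9% of all tested rows. Log2 fold changes ran from -0.21 to 0.37 with a median of 0.0045. Cd274, which encodes the PD-1 ligand PD-L1, was 31.8 and 32.5 FPKM under PBS and 34.3 and 36.2 FPKM under IL-16 (log2 fold change 0.13, 95% interval -0.050 to 0.31, limma adjusted p = 0.321). Pdcd1lg2, the gene of the second PD-1 ligand, was 6.71 ± 0.0795 and 7.65 ± 0.945 FPKM. The B7 genes Cd80 and Cd86, whose products bind CTLA-4 and CD28, were 10.3 ± 0.523 and 10.3 ± 0.621 FPKM, and 2.04 ± 0.531 and 1.77 ± 0.207 FPKM. Lgals9, the gene of galectin-9, a ligand of TIM-3, was 41.2 and 43.2 FPKM under PBS and 42.1 and 57.7 FPKM under IL-16. Lgals3, the gene of galectin-3, a described ligand of LAG-3, was the one with the low unadjusted p, at 100.4 ± 2.45 and 130.1 ± 3.41 FPKM (log2 fold change 0.37, limma adjusted p = 0.105). Tnfrsf14, the gene of HVEM, was 38.3 ± 0.275 and 33.8 ± 1.13 FPKM (limma adjusted p = 0.218).

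Among 11 tested co-stimulatory counterparts, which share ligands with or act against the checkpoint receptors, none passed. On each side 3 had an unadjusted limma p under 0.05, beside 9.59% of all tested rows on the higher side and 13.9% on the lower. The median log2 fold change was 0.0029. Cd226, the activating receptor that competes with TIGIT, was 11.9 and 10.6 FPKM under PBS and 7.97 and 7.94 FPKM under IL-16 (log2 fold change -0.45, 95% interval -0.69 to -0.20, limma adjusted p = 0.109). Cd2, an adhesion receptor, was 139 ± 18.2 and 197 ± 10.1 FPKM, and Tnfrsf4, which encodes OX40, was 272 ± 10.7 and 344 ± 22.7 FPKM (limma adjusted p = 0.112 and 0.131). Cd28 and Icos, the activating relatives of Ctla4 that flank it on the same strand, were 61.3 ± 1.63 and 64.2 ± 2.63 FPKM, and 81.5 ± 10.3 and 76.1 ± 6.06 FPKM.

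Ratios within a library do not depend on how libraries are scaled, and the pairs given here were picked with the values known. Tigit stood at 1.04 and 1.33 times Cd226 in the PBS libraries and at 2.11 and 2.07 times in the IL-16 libraries, so both IL-16 ratios were higher. Entpd1 stood at 3.13 and 2.96 times Nt5e under PBS and at 5.17 and 5.72 times under IL-16. Lag3 stood at 0.764 and 0.774 times the Ctla4 row, without its copy rows, under PBS and at 1.04 and 0.952 times under IL-16. The ratio of Cd200r1 to the gene of its ligand, Cd200, was 0.260 and 0.212 under PBS and 0.122 and 0.115 under IL-16. The ratio of Ctla4 to Cd28 overlapped between the groups, at 2.74 and 2.71 under PBS and 2.54 and 2.73 under IL-16. Because the pairs were picked in this way, the ratios are given as a description and were not tested.

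**Figure D3:**
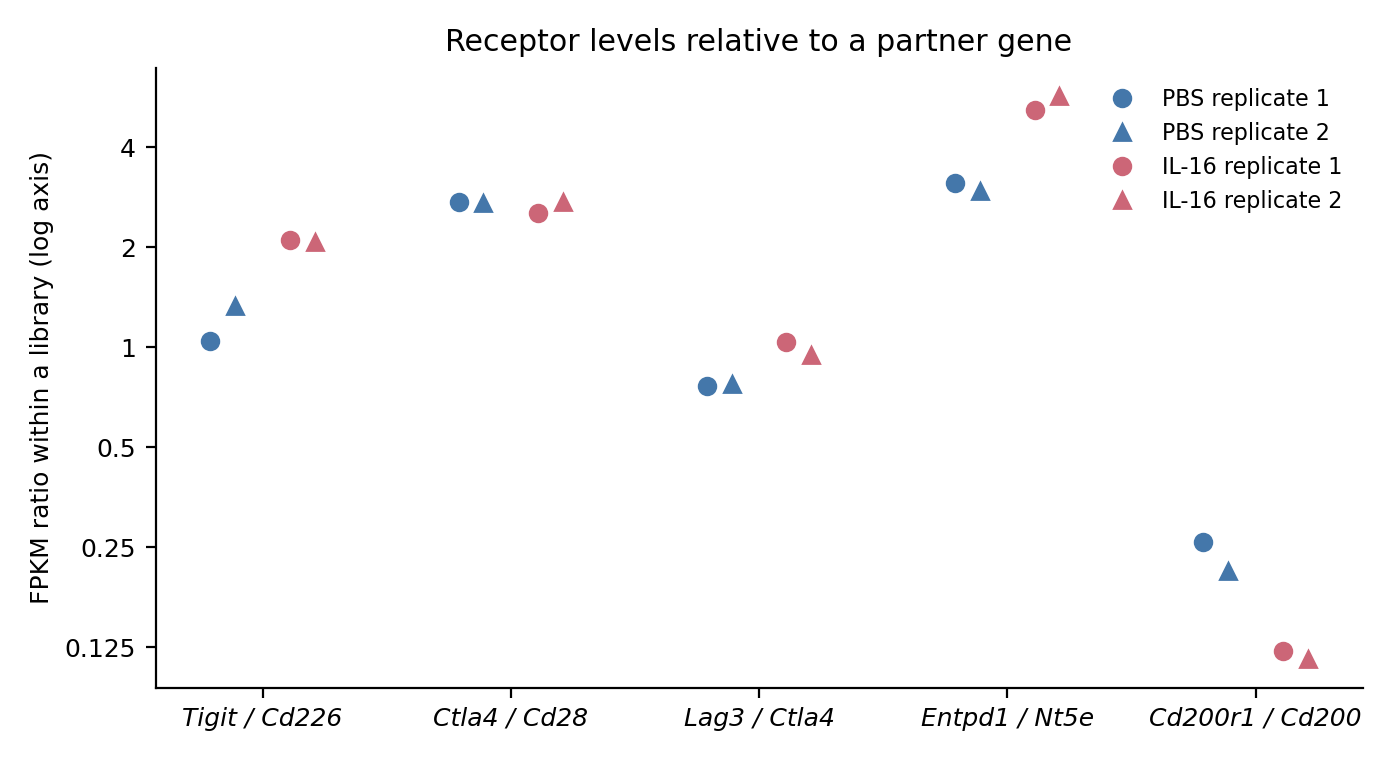
Ratio of FPKM between a checkpoint gene and a partner gene within each library on a log axis, with PBS in blue, IL-16 in red, circles for replicate 1 and triangles for replicate 2. The IL-16 ratios lie above the PBS ratios for Tigit to Cd226, Entpd1 to Nt5e and Lag3 to Ctla4, below them for Cd200r1 to Cd200, and overlap them for Ctla4 to Cd28.

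CD39 acts ahead of CD73, the product of Nt5e, which makes adenosine from AMP. Nt5e was 5.61 and 5.50 FPKM under PBS and 4.77 and 4.64 FPKM under IL-16 (log2 fold change -0.20, 95% interval -0.45 to 0.049, limma adjusted p = 0.284). Adora2a, the gene of the adenosine receptor that inhibits T cells, was 14.4 ± 0.162 and 19.8 ± 0.475 FPKM (log2 fold change 0.44, limma adjusted p = 0.101). Slc29a1, a nucleoside transporter gene, was 22.0 ± 0.743 and 17.0 ± 1.52 FPKM, and Adk, the adenosine kinase gene, was 12.1 ± 1.19 and 9.33 ± 0.870 FPKM (limma adjusted p = 0.130 and 0.174). None of the 10 tested genes of this list passed, and the median log2 fold change was -0.11. An unadjusted limma p under 0.05 was found for 4, beside 23.4% of all tested rows.

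Of 19 other inhibitory receptor genes 13 were tested and none passed, with a median log2 fold change of -0.14. At an unadjusted limma p under 0.05 there were 3 on the higher side and 1 on the lower, beside 9.59% and 13.9% of all tested rows. The 3 with the smallest p were Lilrb4a, a receptor gene with inhibitory motifs, at 234 ± 0.0742 and 324 ± 22.2 FPKM (limma adjusted p = 0.101), Adora2a, and Vsir, which encodes VISTA, at 92.0 ± 2.10 and 111 ± 2.80 FPKM (limma adjusted p = 0.130). Reads of Lilrb4a can be shared with its near-identical neighbour Lilrb4b.

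Downstream of the receptors, none of 23 tested signalling genes passed, and the median log2 fold change was -0.071. An unadjusted limma p under 0.05 was found for 6 (2 higher, 4 lower), beside 23.4% of all tested rows. Sh2d1a, which encodes SAP, the adaptor of SLAM family receptors, came nearest, with 43.6 and 42.7 FPKM under PBS and 23.0 and 19.0 FPKM under IL-16 (log2 fold change -1.01, limma adjusted p = 0.0514; 0.00983 to 0.202 over 13 alternatives, of which it passed in 8). Fyn, a Src family kinase gene, was 71.5 ± 2.60 and 91.9 ± 1.73 FPKM, and Rasa1, a Ras GTPase-activating protein gene, was 21.3 ± 0.0926 and 17.3 ± 0.358 FPKM (limma adjusted p = 0.105 and 0.133).

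**Figure D4:**
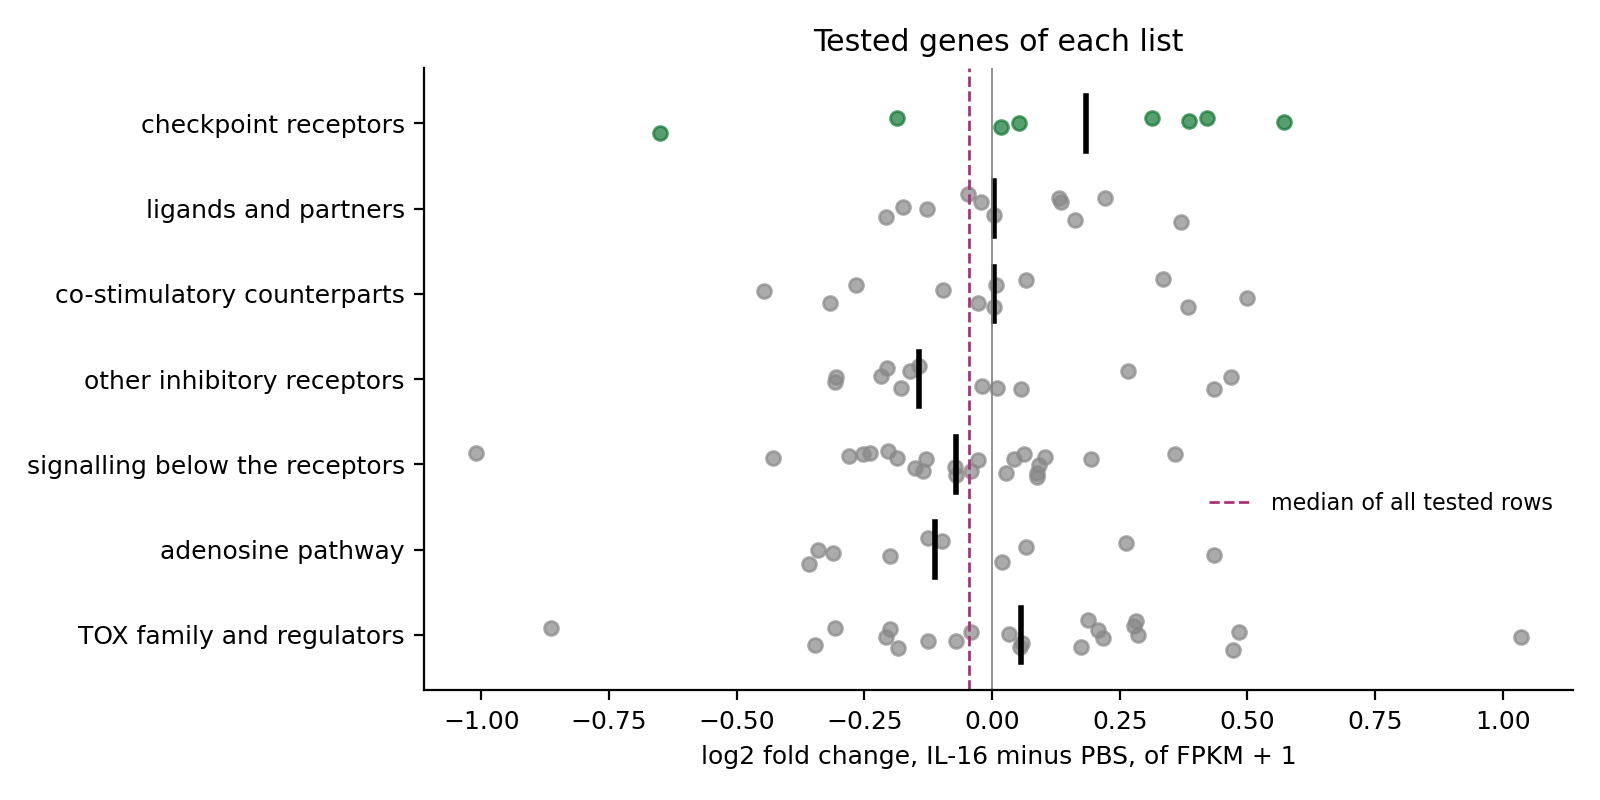
Log2 fold change, IL-16 minus PBS on log2(FPKM + 1), of the tested genes of the checkpoint group (green) and of 6 related gene lists (grey), with a black bar at each list's median and a dashed line at the median of all tested rows (-0.045); vertical scatter within a list only separates the points. The checkpoint genes range from -0.65 to 0.57, and the point at 1.04 in the bottom list is Tbx21, the gene that passed.

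The rows most like Entpd1 over the 4 libraries, by Euclidean distance between log2(FPKM + 1) profiles centred on their means, were Ifitm1 (distance 0.029), Gnat1 (0.046) and Tmem184b (0.058). With 4 libraries such likeness is common, and 195 rows lay within a distance of 0.2.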

How the data were processed

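The table deposited by the authors holds 26334 rows and 1 value per library, read as FPKM. The file gives no unit; FPKM was taken from the values, which are fractional and sum to 373924 to 391153 per library. The submitters' processing notes name fastp, HISAT2, featureCounts and GRCm39, without versions; the tool and annotation behind the values are not stated in the sources used here. Ratios of values under 0.2 FPKM between libraries showed no steps of whole reads (at most 1.49% of genes within a window of 0.5%), so the depth is unknown and no counting interval is given.

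Groups came from the sample titles. Rows with at least 1 FPKM in at least 2 libraries entered a two-sided limma test (version 3.58.1, R 4.3.3) of log2(FPKM + 1) on group alone, using the option for a mean-variance trend. The same script was tested on simulated data. The 10 genes and the related lists were chosen with earlier results of these data known, so no list was tested as a set. Named from the related lists are the genes that passed or, where none did, the 3 with the smallest p, plus preset ligands and partners; others are said to be chosen later. Alternatives were the pseudocount, filter, scaling, trend, summed copies, a replicate block and leaving out each library. Symbols, neighbours and promoters came from RefSeq and GENCODE vM21, both of GRCm38, so gene coordinates in the authors' build are not given.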

Additional observations from a re-analysis of the deposited data

How the results depend on the processing

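No tested checkpoint gene lost a call, since none had passed, and of 103 fits of the 8 tested genes under alternatives 96 kept direction and side of the threshold, 4 passed and 3 turned sign. The sign turned for Btla without IL-16 replicate 1 (leaving out 1 library gave -0.029 to 0.14) and for Ctla4 with copies summed (-0.063) and without PBS replicate 1 (leaving out 1 library gave -0.0021 to 0.036). The 4 that passed were Entpd1, Lag3 and Cd200r1 without IL-16 replicate 1 and Entpd1 with copies summed (1 checkpoint gene called). The fit without IL-16 replicate 1 has 1 library left for IL-16, so its spread came from PBS alone. Leaving out 1 library gave a median log2 fold change of 0.12 to 0.23 over the checkpoint genes. That median was 0.035 with no filter, where Tox and Cd160 enter, 0.31 at a mean of at least 5 FPKM, where Cd200r1 leaves, 0.099 with median-of-ratios scaling, where Tox enters, and 0.064 after rescaling to a common total, where both enter.

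Over all rows, the 26 calls (19 higher, 7 lower) became 53 (40 higher, 13 lower) with median-of-ratios scaling, 126 (73 and 53) with copies summed, and 0 with no filter or with no mean-variance trend (3068 and 2620 rows at an unadjusted p under 0.05 in limma). Lower calls were 13 at a pseudocount of 5 and 11 after rescaling to a common total. Leaving out 1 library gave 9 to 2065 calls (6 to 765 higher, 2 to 1300 lower), the most without IL-16 replicate 1. The cause was not tested. Such fits take the spread of a treatment with 1 library left from the other treatment. The replicate block gave 31 calls, 11 of them lower, and changed no call of a checkpoint gene. Replicate numbers are shared by title only, and same-numbered libraries did not deviate together (r = 0.0067 across rows). The related lists kept their count of calls in 59 of 78 fits and their median within the spread between IL-16 libraries in 63 of 78. In the main fit every related list but that of TOX relatives and regulators had 0 calls, so most kept counts are 0 in both fits. With no filter or no mean-variance trend no row passed, so a count of 0 could only stay. With 2 libraries a group and unknown depth, differences in the genes near 1 FPKM could not be resolved.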
